A study of Canis lupus familiaris with 18 samples.

Results

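The 19 genes described here were higher in vascular smooth muscle cells (VSMCs) grown from veins than in VSMCs grown from the aorta, without a matching rise in endothelial cells from the same kinds of vessels. They were chosen from the 24580 Ensembl genes of the count table, of which 8107 had at least 5 CPM (the read count scaled to a common library total) in all 6 venous VSMC samples. Within each sample number, the CPM + 1 of the vena cava and of the vena porta had to be at least 1.5 times the CPM + 1 of the aorta. This held in all 6 pairs for 38 genes. Of these 38, 19 were left out because the mean CPM + 1 of aortic canine primary endothelial cells (CaPECs) was not above 0.667 times that of the 6 venous CaPEC samples. The last condition, against genes restricted to VSMCs, removed 0 genes. The difference between venous and aortic VSMCs is therefore what chose these genes, and its values are given as a description. Model calls on this contrast are given beside the share over all genes, and support nothing.

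Polyadenylated RNA was sequenced from cultured CaPECs and VSMCs of the abdominal aorta, vena cava, and vena porta of healthy adult male dogs, taken from cadavers. CaPECs were digested off the inner surface of the inverted vessel, and VSMCs were grown from the minced wall that remained. Each cell type and vessel had 3 samples, 18 in all, with numbers from 1 to 3 in the labels. The study used 3 dogs, and each number was read as 1 of them. All cultures were untreated primary cells at passage 3, and CaPECs and VSMCs were kept in different media, so cell type and medium cannot be told apart. No label names a dog, and the column headers use different codes for CaPECs and VSMCs. Whether the numbers stand for the same animals in CaPECs as in VSMCs is not stated in the labels.

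VSMCs form the contractile layer of the vessel wall and produce much of its matrix. The layer is thick in the aorta, which carries blood at high pressure, and thinner in veins, and the VSMCs of different vessels arise from different embryonic sources. In culture, VSMCs lose part of their contractile state and begin to divide, and the levels given here are those of cultured cells.

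The count table names genes by Ensembl identifier only, and 0 of these could be paired with a symbol, so no function, sequence, or marker is given for any gene. The genes are ranked from 1 to 19 by the smallest of their 6 vein to aorta ratios, with rank 1 the highest. Total counts ranged from 7341227 to 15746769 in VSMCs and from 6020932 to 13422177 in CaPECs. The 19 genes had at least 42 counts in every venous VSMC sample and at least 17 in every aortic one, and samples of a group differed by 6.9 to 25.5 times the counting noise (median squared difference over genes). With 1 culture per cell type, vessel, and sample number, p-values measure only the spread between these samples. The cultures were bulk samples, in which fewer cells of a type and less RNA per cell cannot be told apart.

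Known markers could not be looked up, so the purity of the cultures was described with genes restricted to 1 cell type in these data. The 8 genes with at least 5 CPM in all 9 CaPEC samples and below 2 CPM in all 9 VSMC samples summed to 215 to 954 CPM in CaPECs. In VSMCs their sum was 3.79 to 5.29 CPM in the aorta, 4.10 to 6.03 in the vena cava, and 1.73 to 6.46 in the vena porta. The sums in venous and aortic VSMCs overlapped. These genes were picked by level from the same samples, with a limit that already keeps them low in every VSMC sample, so the part of other cells in the results was not tested.

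The CaPEC samples of the vena cava were not alike. On the first principal component of the 500 most variable genes in CaPECs, which held 46.5% of the variance, vena cava samples 1 and 3 were at 53.3 and 47.0. Vena cava sample 2 was at -17.7, and the other 6 CaPEC samples were at -28.3 to -2.5. The genes restricted to CaPECs summed to 227 and 215 CPM in vena cava 1 and 3, 882 CPM in vena cava 2, and 518 CPM or more in the other 6. Without these 2 samples, which was tried after seeing the data, the rule gave 22 genes, among them all 19.

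ENSCAFG00000018598, at rank 1, had the highest median of the 6 vein to aorta ratios as well as the highest smallest one. In VSMCs of the aorta it was at 14.9, 8.88, and 12.8 CPM in numbers 1, 2, and 3. It reached 143, 103, and 84.1 CPM in the vena cava and 151, 53.0, and 58.9 CPM in the vena porta. Every venous sample was above every aortic one, with a mean of 98.7 ± 41.3 CPM in veins (SD, n = 6) and 12.2 ± 3.05 CPM in the aorta (SD, n = 3). The 6 ratios ran from 4.35 to 10.5. No other gene of the 19 had all of its ratios at 2 or more.

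In CaPECs, the same gene was high in 2 samples only, both of number 2, with 26.1 CPM (157 counts) in the aorta and 30.1 CPM (186 counts) in the vena porta. The vena cava sample of number 2 had 0.315 CPM (3 counts) and vena cava 3 had 0.406 CPM (4 counts). It was not counted in the other 5 CaPEC samples, where 3 counts would be 0.224 to 0.395 CPM. The 5 genes restricted to VSMCs in these data summed to 3.99 CPM in aorta 2 and 1.13 CPM in vena porta 2, and to between 0 and 3.25 CPM in the other CaPEC samples. The sum was 192 to 297 CPM in VSMCs. These 5 genes were picked to be below 2 CPM in every CaPEC sample, so their sum in CaPECs was held low by the choice, and the part of VSMC RNA in these 2 values was not tested.

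ENSCAFG00000016602, at rank 2, was a low gene in VSMCs with a wide spread. Its aortic VSMC samples were at 1.398, 4.49, and 2.60 CPM in numbers 1, 2, and 3. In the vena cava it was at 9.21, 27.4, and 6.83 CPM and in the vena porta at 8.04, 9.88, and 41.1 CPM. The lowest venous sample was above the highest aortic one, but the venous samples differed by up to 5.38-fold among themselves (CPM + 1). The 6 ratios ran from 1.98 to 11.7, and the highest, in the vena porta of number 3, was the highest of all 114 ratios. With edgeR, the fitted log2 fold change of veins over aorta was 2.46 (standard error 0.66), against 2.84 (standard error 0.40) at rank 1. Both genes were chosen on this contrast in the same samples, so these values and their standard errors are a description and no test.

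**Figure D1:**
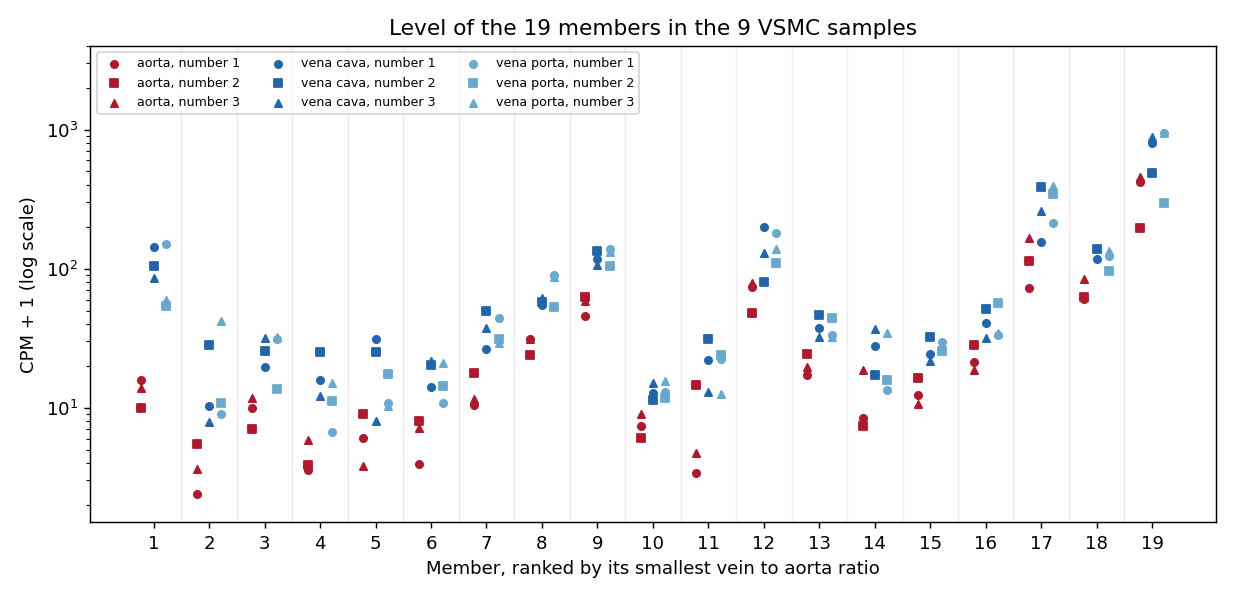
CPM + 1 on a log scale in the 9 VSMC samples for the 19 genes in rank order, with 1 point per sample, the vessel as color and the sample number as symbol. Rank 1 stands out by the gap between its aortic samples (8.88 to 14.9 CPM) and its venous samples (53.0 to 151 CPM), and the other genes show smaller gaps.

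The genes were spread over a wide range of levels. The mean over the 6 venous VSMC samples was at least 100 CPM in 5 genes and below 30 CPM in 9. Rank 19 was the highest in VSMCs, with 421, 196, and 453 CPM in the aorta of numbers 1, 2, and 3, 802, 487, and 884 CPM in the vena cava, and 945, 297, and 941 CPM in the vena porta. Here number 2 was the lowest in each vessel, and its vena porta sample (297 CPM) was below the aortic samples of both other numbers. Within a number, each vein was at 1.51 to 2.47 times the aorta (CPM + 1).

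Rank 17 also had high levels, with 71.4, 112, and 165 CPM in the aorta, 155, 388, and 258 CPM in the vena cava, and 213, 345, and 390 CPM in the vena porta. Its vena cava sample of number 1 was below its aortic sample of number 3, so these groups overlapped as well. Rank 12 had 72.9, 47.0, and 78.0 CPM in the aorta, 199, 79.7, and 129 CPM in the vena cava, and 179, 110, and 137 CPM in the vena porta. All 6 of its venous samples were above the aortic ones, the lowest by a small margin of 79.7 against 78.0 CPM.

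Rank 9 was the most even. It had 44.7, 61.8, and 58.0 CPM in the aorta of numbers 1 to 3, 116, 134, and 105 CPM in the vena cava, and 137, 104, and 130 CPM in the vena porta. The venous mean was 121 ± 14.5 CPM (SD, n = 6) and the aortic mean 54.8 ± 8.96 CPM (SD, n = 3). The venous samples differed among themselves by no more than 1.31-fold (CPM + 1), less than at any other of the 19 genes.

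Rank 10 was also even, with 6.41, 5.09, and 8.08 CPM in the aorta, 11.7, 10.3, and 14.2 CPM in the vena cava, and 11.99, 10.8, and 14.5 CPM in the vena porta. Its 6 ratios lay between 1.67 and 1.94, and the samples of number 3 were the highest in each vessel. Rank 4 was near the lower limit, with 2.55, 2.89, and 4.90 CPM in the aorta, 14.7, 24.1, and 11.1 CPM in the vena cava, and 5.72, 10.2, and 14.1 CPM in the vena porta. Its ratios ranged from 1.89 to 6.45, and on the CPM + 1 scale the ratio of a gene this low understates the ratio of its CPM.

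Rank 11 differed between numbers in how far the aorta lay below the veins. In number 1 the aorta was at 2.39 CPM and the veins at 21.1 and 21.2 CPM, and in number 3 at 3.75 CPM against 11.9 and 11.6 CPM. In number 2 the aorta was at 13.5 CPM and the veins at 30.3 and 22.9 CPM. The aortic sample of number 2 was thus above both venous samples of number 3.

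In all, 14 of the 19 genes had every venous VSMC sample above every aortic one, and the rule that chose them makes this likely. Among the 8107 genes at the same venous level, 7.02% did. In the 5 genes whose groups overlapped (ranks 5, 11, 14, 17, and 19), each vein was above the aorta of its own number. A venous sample was below an aortic sample of another number in each of them, while the venous mean was above the aortic mean. Over the 19 genes, the median of a gene's 6 ratios ran from 1.73 to 7.61. It was at least 2 in 15 genes, and in 11 genes the largest ratio was at least 3.

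By vein and number, the median ratio over the 19 genes was 2.53, 2.39, and 1.99 for the vena cava of numbers 1, 2, and 3. For the vena porta it was 2.43, 1.94, and 2.56. Number 2 had the lowest vena porta median and number 3 the lowest vena cava median. Over the 8107 genes at this level, the vena cava had a median ratio of 1.23, 1.10, and 1.09, and the vena porta had 1.06, 1.02, and 1.16.

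**Figure D2:**
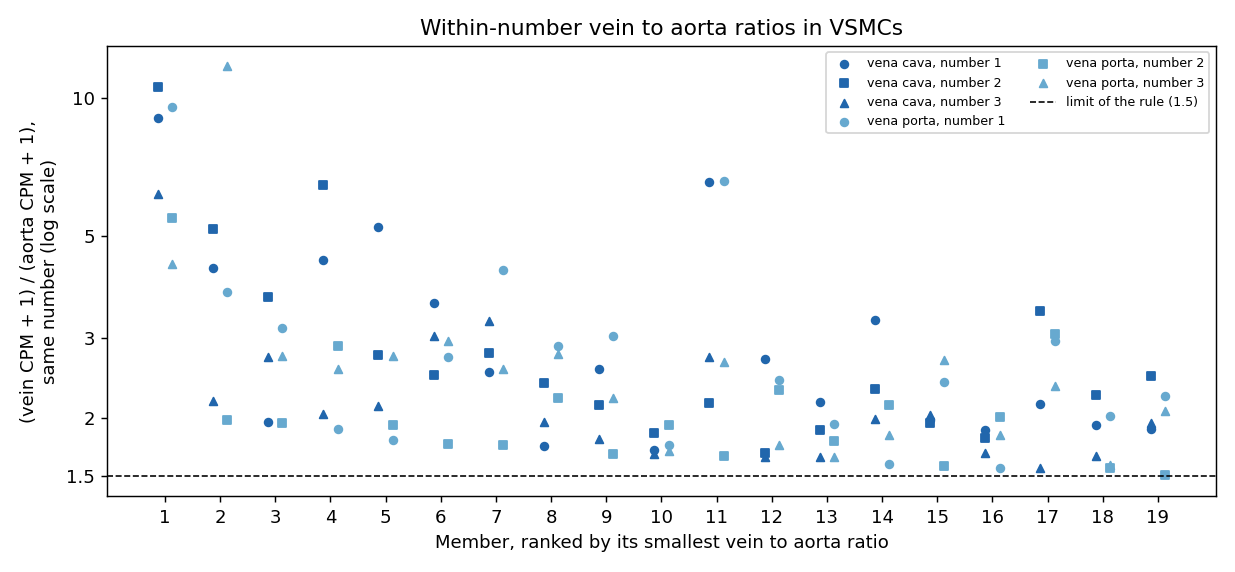
The 6 vein to aorta ratios of CPM + 1 within a sample number for each of the 19 genes in VSMCs, on a log scale, with the vein as color, the number as symbol, and the limit of 1.5 as a dashed line. Rank 1 has no ratio below 4.35, while the other 18 genes have a smallest ratio between 1.51 and 1.98.

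The limit of the rule ran through a dense range of genes. The smallest ratio was below 2 in 18 of the 19 genes and below 1.6 in 6. The genes just inside the limit had smallest ratios of 1.51, 1.56, and 1.56, and the nearest genes outside it, which met the other conditions, had 1.48, 1.47, and 1.46. In all, 14 genes outside had a smallest ratio of 1.4 or more. On the CaPEC condition, the nearest genes inside had aorta to vein ratios of 0.690, 0.737, and 0.775, and the nearest 2 outside had 0.663 and 0.644.

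The choice of scaling also bears on which genes met the rule. CPM on the sample total placed the median vein to aorta ratio of all genes at this level at 0.15 on the log2 scale. With totals scaled by the TMM method (trimmed mean of M values, which centers the bulk of genes), this median was -0.01, and 10 genes met the rule, all of them among the 19. The ratios of all 19 stayed above 1 in all 6 pairs, with smallest ratios of 1.34 or more. The choice fixed that they stayed above 1, since the rule held every ratio at 1.5 or more. The TMM factors of the VSMC samples, 0.788 to 1.03, lay too close together to bring such a ratio below 1. Rank 1 had a smallest ratio of 3.73 and rank 2 of 1.96 on the TMM scale. Rank 19 was at 1.48 and rank 18, the lowest, at 1.34.

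The fit of edgeR over 11484 genes, which uses TMM, gave the 19 genes a median log2 fold change of 1.09 for veins over aorta, against 0.01 over all genes tested. At an adjusted p-value below 0.05 and a log2 fold change above 0.4, 2 of the 19 (ranks 1 and 9) were called higher in veins, and 0.0261% of all genes were. With the sample number as a replicate block, 15 of the 19 were called, against 0.401% of all genes. With DESeq2 15 were called, against 0.967%. The choice fixed the outcome of these counts, since the same contrast in the same samples chose the genes, and their excess over the shares is no enrichment.

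The rule was also applied to 2 of the numbers, and the ratio was taken in the number left out, as the geometric mean of the vena cava and vena porta ratios. With number 1 left out, 38 genes were chosen, and their median ratio in number 1 was 1.995, against 1.13 over all 7380 genes that met the level and CaPEC conditions. With number 2 left out, 87 genes were chosen, and their median ratio in number 2 was 1.28, against 1.05. With number 3 left out, 48 genes were chosen, and the median was 1.54 in number 3, against 1.12. In each case, 19 of the chosen genes are the ones described here. The rule asked a ratio of 1.5 or more of them in the number left out too, so these medians are partly fixed by the choice.

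Both veins were above the aorta in the number left out in 33 of the 38 genes, 57 of the 87, and 39 of the 48, in the order of the numbers. The shares over all genes were 54%, 42.9%, and 55.8%. Both ratios reached 1.5 in 20, 21, and 19 genes, where 3.46%, 2.29%, and 5.18% of all genes did. Nothing is read from these last counts, since 19 genes of each are the ones described here, for which the rule asked this of every number. On column totals, the share with both veins above the aorta was lowest in number 2. With TMM-scaled totals, the median ratios were 2.09, 1.58, and 1.45 in numbers 1, 2, and 3, so the order of the medians depends on the scaling. The 19 genes are also part of each median and share of the chosen genes on column totals, so all of these values are a description. Whether the numbers differed was not tested.

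**Figure D3:**
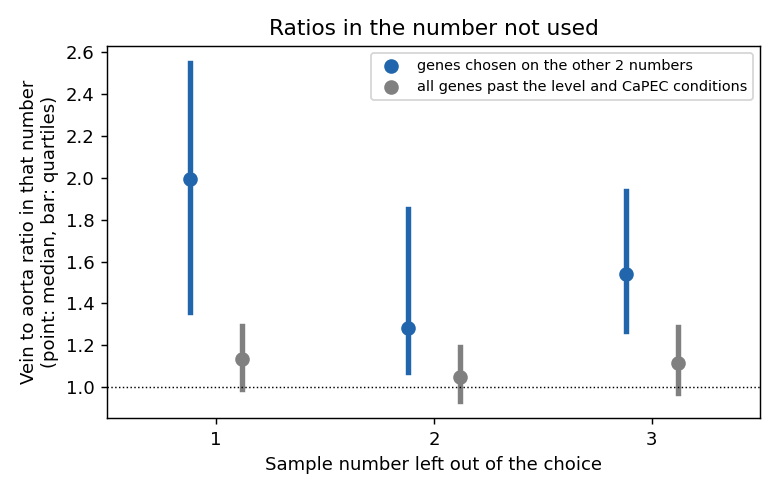
Vein to aorta ratio in the sample number left out of the choice, for genes chosen on the other 2 numbers (blue) and for all genes that met the level and CaPEC conditions (gray). Points are medians over genes and bars run from the lower to the upper quartile, and the medians of the chosen genes are 1.995, 1.28, and 1.54 against 1.13, 1.05, and 1.12. Each chosen set holds the 19 genes described here, whose ratios the rule held at 1.5 or more in every number, so these medians are a description.

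The rule asks nothing of the order of the 2 veins, so vena cava and vena porta VSMCs were compared over all 9 VSMC samples with edgeR's quasi-likelihood test. With edgeR, 0 of the 19 genes passed an adjusted p-value of 0.05, and 0 had an unadjusted p-value below 0.05. Over all 11484 genes tested, 0.00871% were called, and 5.19% were below 0.05 before adjustment (2.45% with the higher level in vena cava VSMCs and 2.74% with it in vena porta VSMCs). DESeq2 and the fit with the replicate block also called 0 of the 19. DESeq2 called 0.592% of all genes. The block called 0.496% of all genes and gave 2 of the 19 an unadjusted p-value below 0.05, against 8.95% of all genes. The rule asked both veins to be above the same aorta in each number, which favors genes raised alike in both, so these counts are not independent of the choice. A p-value above the limit does not show that the veins were alike.

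The fitted log2 fold changes of vena cava over vena porta ran from -0.56 (standard error 0.65) at rank 2 to 0.68 (standard error 0.45) at rank 5. Both ends rest on single numbers, since rank 2 was at 0.85 without number 3 and -1.65 without number 2, and rank 5 at 0.20 without number 1. Rank 5 was at 30.4, 24.0, and 7.08 CPM in the vena cava and 9.81, 16.6, and 9.37 CPM in the vena porta. Rank 8 had 53.7, 56.3, and 60.5 CPM in the vena cava and 89.2, 52.3, and 85.5 CPM in the vena porta. Its log2 fold change was -0.49 (standard error 0.24), and it was -0.24, -0.66, and -0.54 without number 1, 2, and 3 and -0.45 with the replicate block. Of the 57 comparisons of the 2 veins within a number, the vena porta was higher in 26, and it was higher in 43% of such comparisons over the 8107 genes.

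In CaPECs, where the rule set only a limit on the ratio of aorta to veins, all 9 samples had at least 5 CPM in 17 of the 19, with ranks 1 and 2 as the exceptions. Among the genes at this VSMC level, 7445 of 8107 had the same, so the count of 17 is near the background. The mean over 9 CaPEC samples was above that over 9 VSMC samples in 13 genes (68.4%), and in 71.9% of all genes at this level. Every CaPEC sample was above every VSMC sample in 4 genes (ranks 4, 10, 16, and 17), where 10.2% of genes at the level had this order. Every VSMC sample was above every CaPEC sample in 0 genes, against 3.39%. The ratio of the CaPEC to the VSMC mean (CPM + 1) had a median of 3.03, against 1.21 over the genes at this level. Low aortic VSMC levels were part of the choice, so the ratio was also taken in veins alone, where the median was 2.28 against 1.19. These ratios are a description, since the rule used the VSMC levels.

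Rank 4 had the largest ratio of the CaPEC to the VSMC mean, at 17.6 (CPM + 1). It was at 260, 190, and 248 CPM in aortic CaPECs of numbers 1, 2, and 3, 127, 157, and 111 CPM in vena cava CaPECs, and 217, 240, and 192 CPM in vena porta CaPECs, while no VSMC sample exceeded 24.1 CPM. Rank 17 was the highest in CaPECs, with a lowest sample of 404 CPM, a median of 891, and a highest of 3644. At rank 1 the order was the opposite, with a CaPEC mean of 6.33 ± 12.4 CPM (SD, n = 9) and all 9 VSMC samples between 8.88 and 151 CPM.

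The aorta to vein ratio in CaPECs ran from 0.690 at rank 14 to 2.37 at rank 11, with a median of 0.930 over the 19 genes and 0.925 over the genes at this level. It was above 1 in 8 of the 19 genes, and in 2924 of the 8107 genes at this level. It was at least 1.5 in 2 (ranks 1 and 11), and in 430 of the 8107. Rank 11 had 114, 70.1, and 89.4 CPM in aortic CaPECs, 24.2, 17.0, and 52.1 CPM in the vena cava, and 59.6, 60.5, and 13.9 CPM in the vena porta. Every aortic CaPEC sample was above every venous one, so at this gene the aorta was high in CaPECs and low within each number in VSMCs. At rank 1, the ratio of 1.58 rests on the 2 samples of number 2.

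**Figure D4:**
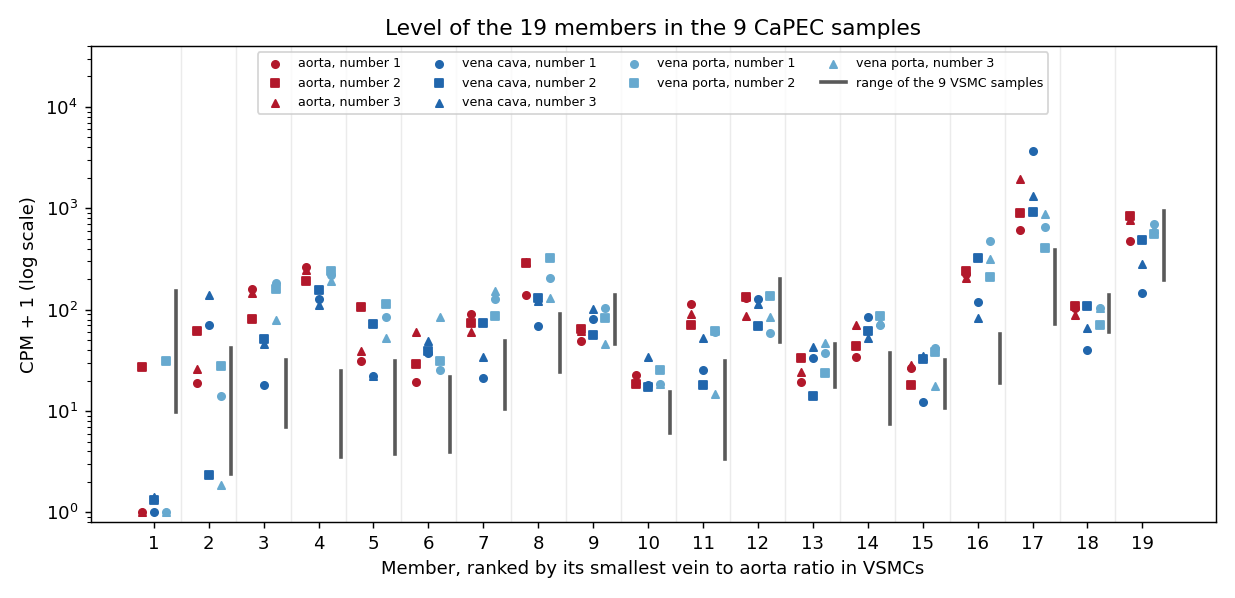
CPM + 1 on a log scale in the 9 CaPEC samples for the 19 genes, with 1 point per sample, the vessel as color and the number as symbol, and a gray bar for the range of the 9 VSMC samples. All CaPEC points lie above the VSMC range at ranks 4, 10, 16, and 17, and 7 of the 9 points lie below it at rank 1.

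Vena cava and vena porta CaPECs were compared in the same way, over 18 of the 19 genes, since rank 1 did not pass the filter on low counts. At an adjusted p-value below 0.05, edgeR called 0 of the 18, and 0.00855% of the 11696 genes tested. Of the 18, 14 had the higher fitted level in the vena porta. Over all genes tested, the vena porta was higher in 50.4%. At an unadjusted p-value below 0.05 stood 6 of the 18, against 11.7% of all genes. Of these 6, 5 were higher in the vena porta (5.04% of all genes) and 1 in the vena cava (6.63%). DESeq2 called 3 of the 18 (ranks 3, 4, and 7), all higher in the vena porta, where it called 1.03% of all genes in this direction. With the sample number as a block, edgeR called 0 of the 18, and 0 of the 11696 genes tested.

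Rank 3 had 17.0, 50.2, and 44.8 CPM in vena cava CaPECs of numbers 1, 2, and 3 and 181, 160, and 77.7 CPM in vena porta CaPECs. Every vena porta sample was above every vena cava sample, and edgeR gave vena cava over vena porta a log2 fold change of -1.97 at an adjusted p of 0.247 (standard error 0.46). Rank 7 had 19.99, 73.4, and 33.4 CPM in the vena cava and 125, 85.9, and 154 CPM in the vena porta, also without overlap, and the log2 fold change was -1.59 at an adjusted p of 0.2615 from edgeR (standard error 0.45). Rank 17 lay the other way, with 3644, 923, and 1329 CPM in the vena cava and 649, 404, and 878 CPM in the vena porta. Its log2 fold change was 1.54 at an adjusted p of 0.364 from edgeR (standard error 0.58).

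Within a number, the vena porta was higher than the vena cava in all 3 numbers in 7 of the 19 genes in CaPECs, where 10.1% of genes at the level had this order, and in 1 gene in VSMCs, where 8.2% did. Whether the order of the veins differed between the cell types was not tested.

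Without number 2, edgeR called 4 of 18 genes higher in the vena porta (ranks 5, 7, 16, and 19), where 2.29% of all genes were called in this direction. Without number 1 or without number 3 it called 0 of the 19, and 0 of all 11815 and 11666 genes tested. The samples that stand apart, vena cava 1 and 3, are the ones that remain without number 2. Without these 2 samples, with vena cava 2 as the only vena cava sample and assumed to vary like the other groups, edgeR called 0 of 19, 2 of the 19 had an unadjusted p-value below 0.05 (4.29% of all genes), and the fitted level was higher in the vena porta in 17 (53.7% of all genes). At rank 2 the log2 fold change was 2.29 with all samples, -3.34 without them, 3.76 without number 2, and 0.79 without number 3. Rank 7 was at -0.78 without these samples and -2.47 without number 2, and rank 17 at 0.46 without these samples and 0.71 without number 1. Rank 3 stayed between -2.38 and -1.40 when these samples or any 1 number were left out.

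The sample numbers were also compared for the level of these genes in VSMCs. Over the 3 vessels, the geometric mean of CPM + 1 in the highest number was 1.06 to 2.41 times that in the lowest. Number 2 was the highest in 9 genes and the lowest in 8, so it stood at one end in 17 of the 19, where it did in 78.3% of the 8107 genes at this level. With TMM it was the highest in 7 and the lowest in 9, and the share over the 8107 genes was 73.9%. Number 1 was the highest in 2 genes and number 3 in 8.

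With vessel and number in edgeR's model, 6 of the 19 genes (ranks 1, 6, 12, 14, 17, and 19) differed between the numbers at an adjusted p-value below 0.05, where 6.44% of the 11484 genes did. At an unadjusted p-value below 0.05 stood 13, against 22.1% of all genes, and DESeq2 called 8, against 10.1%. The rule asks for ratios that repeat within each number, which favors genes with a small spread around such a model, so this count is not independent of the choice. Without a term for the vessel, 0 of the 19 were called by edgeR, and 1.95% of all genes were called. At an unadjusted p-value below 0.05 were 3 of the 19, against 16.2% of all genes.

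The geometric means show how the numbers were ordered. Rank 19 had 685, 306, and 723 in numbers 1, 2, and 3 (CPM + 1). Rank 14 had 14.6, 12.6, and 28.7, with number 3 apart. Rank 1 had 70.2, 38.1, and 41.3, with number 1 apart, and rank 17 had 134, 248, and 256, with number 1 below. Rank 12 had 138, 75.4, and 112. These genes did not share 1 order of the numbers.

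**Figure D5:**
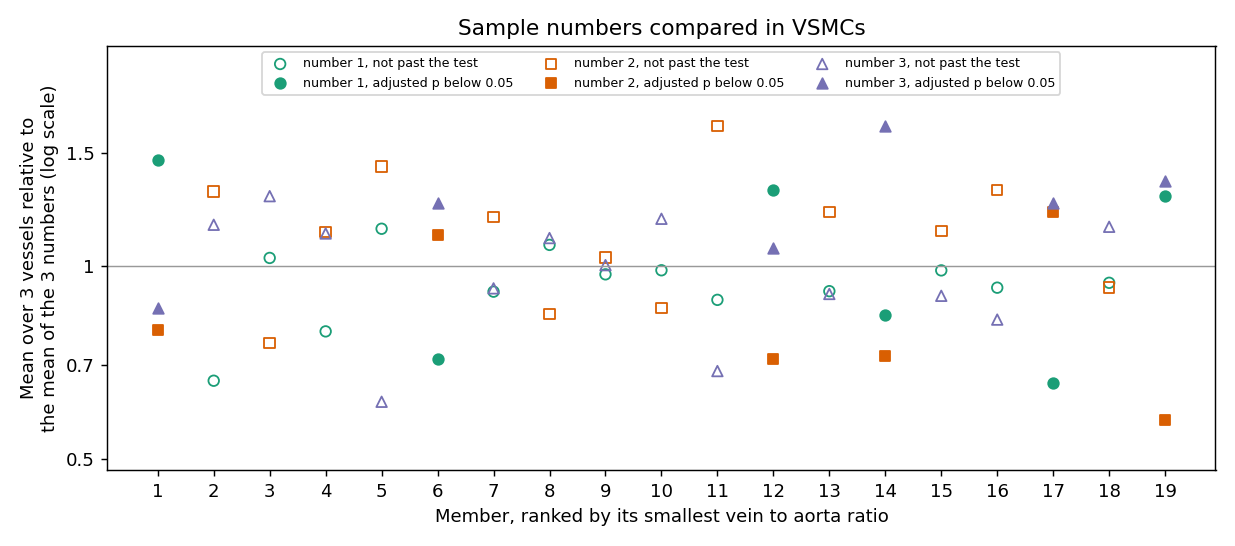
Geometric mean of CPM + 1 over the 3 vessels for each sample number in VSMCs, relative to the mean of the 3 numbers, on a log scale, with filled symbols for the 6 genes past edgeR's test between numbers. Number 2 (orange squares) lies at the top in 9 genes and at the bottom in 8 on this scale of column totals, and with TMM in 7 and 9.

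In CaPECs, 0 of the 18 genes tested differed between the numbers in edgeR's test, 2 had an unadjusted p-value below 0.05 (3.19% of all genes), and 0% of the 11696 genes were called. DESeq2 called 1, rank 5, and 0.282% of all genes. Rank 5 had 30.1, 105, and 38.1 CPM in aortic CaPECs of numbers 1, 2, and 3, 21.3, 70.8, and 21.0 CPM in the vena cava, and 83.9, 112, and 51.8 CPM in the vena porta. Number 2 was the highest in each vessel.

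The 19 genes left out by the CaPEC condition were high in venous VSMCs and higher in venous CaPECs as well. Their ratios in VSMCs were larger, with a smallest ratio of at least 2 in 6 of 19, against 1 of the 19 genes described here. At least 1 CaPEC sample was below 2 CPM in 9 of them, against 2. These are descriptions of sets that the rule itself separated.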

How the data were processed

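Single-end reads of 75 bases were aligned to CanFam3.1 with STAR 2.4.2a, per the submitters' processing notes, and the raw counts per gene that the authors deposited were made with HTSeq 0.6.1p1 in union mode. The annotation release and strand setting are not given in the sources used here. Each column was assigned to the sample whose description names it. The genes and the tests were chosen with earlier results of these data known.

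The rule was applied to CPM on column totals with a pseudocount of 1. Tests were run over all genes with edgeR 4.0.16 in R 4.3.3 (TMM, filterByExpr with a minimum count of 10, glmQLFTest) and Benjamini-Hochberg adjustment. DESeq2 1.42.0 was an alternative, as were other filters and scalings, the replicate block, and leaving out each number or, after seeing the data, vena cava CaPEC samples 1 and 3. The standard error of an edgeR fold change was its size divided by the square root of F. Replicates differed by 6.9 to 25.5 times the counting noise. Same-numbered VSMC samples deviated together from their group means (correlation across genes 0.098 to 0.468 over 9 pairs), and CaPEC samples did not (-0.281 to 0.215). The pairing by dog is an assumption made from the label numbers, which do not name a dog. Without symbols, identifiers were given for the 2 genes with the highest smallest ratio and for genes called between the veins of VSMCs, of which there were 0.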

Additional observations from a re-analysis of the deposited data

Results flagged for a closer look

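The highest and the lowest sample were compared with the rest by Dixon's test in 38 groups, which were the 6 venous VSMC samples and the 9 CaPEC samples of each gene. A sample stood far from the others in 3 groups, all of them in CaPECs of the vena cava, where 1.9 are expected by chance (1 in 20). Rank 2 was at 138.9 CPM in vena cava 3, with the next sample at 69.4 CPM. Rank 10 was at 33.3 CPM in vena cava 3, with the next at 24.5 CPM. Rank 17 was at 3644 CPM in vena cava 1, with the next at 1930 CPM in aorta 3.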

How the results depend on the processing

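The number of genes that met the rule moved with its settings. It was 109 with the lower ratio limit tried, 1 with a ratio of 2, 31 with a venous minimum of 1 CPM, and 10 with TMM-scaled totals, and 38 to 87 with 1 number left out. With 10 CPM (15 genes), a pseudocount of 0.5 (23 genes), or without vena cava CaPEC samples 1 and 3 (22 genes, added after seeing the data), it stayed within 1.5 times of 19. Between the veins of CaPECs, DESeq2 called 3 genes (2.97% of all genes). Leaving out 1 number gave 4 genes without number 2 (5.37%) and 0 without number 1 or number 3 (0% each). Between the numbers in VSMCs, 10 genes were called without the filter (7.50% of all genes), 0 without the vessel term (1.95%), and 2 to 9 with 1 number left out, namely 9 without number 1 (9.02%), 2 without number 2 (1.15%), and 2 without number 3 (1.21%). Between the numbers in CaPECs, DESeq2 called 1 (0.282% of all genes). For veins against aorta in VSMCs, the contrast of the rule, the main fit called 2 (0.0261% of all genes). DESeq2 called 15 (0.967%) and the replicate block 15 (0.401%). The choice fixed the outcome of these counts, and nothing is read from them. Between the veins, the replicate block called 0 of the 19 in VSMCs (0.496% of all genes). In CaPECs it called 0 of the 18 tested (0% of all genes), so for these genes the block changed no other call. The log2 fold change of vena cava over vena porta in VSMCs at ENSCAFG00000016602 was 0.85 without number 3, against -0.56 with all samples, and -1.65 to 0.85 over the numbers left out. In CaPECs it was -3.34 without vena cava samples 1 and 3, against 2.29. In all, 31 of 47 alternatives kept a count at 0 or within 1.5 times of its value, or a median within the spread over genes. Most of the 31 were counts of 0 that stayed at 0, so this tally says little about how stable the other results are. The causes of the changes given here were not tested.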
